A study of Homo sapiens with 6 samples.

Results

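The genes examined here encode the subunits of RNA polymerase I, II and III together with the general factors of RNA polymerase I and III. They were taken by symbol from the deposited count table: every POLR1, POLR2 and POLR3 gene, GTF3A and GTF3C1 to GTF3C6, BRF1, BRF2, MAF1, UBTF and RRN3. The pattern matched 48 symbols, of which 6 were annotated as pseudogenes and left out, so that 42 of the 36517 genes in the table remained. Of these, 3 belong to RNA polymerase I only, 10 to RNA polymerase II only and 10 to RNA polymerase III only, 7 are shared between polymerases, 2 are factors of RNA polymerase I and 10 are factors of RNA polymerase III. All 42 passed the filter on low counts.

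The data are mRNA sequencing, labelled day 3, of a single human line from breast cancer, MDA-MB-453. Its cells stably carried either a lentiviral negative control hairpin (control, n = 3) or one directed at the small RNA tRF-1-Ser (shtRF, n = 3). The sources do not tell whether the libraries came from separate transductions, so p-values measure only the spread between these libraries. The RNA that the hairpin targets is too small for these libraries, so its knockdown could not be examined in them.

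RNA polymerase I transcribes the large ribosomal RNA precursor, RNA polymerase II the messenger RNAs, and RNA polymerase III the transfer RNAs and other short RNAs. The 3 enzymes are built on a common plan, with a set of small subunits in common and others of their own. A tRF-1 such as tRF-1-Ser is the trailer that is cut from the end of a transfer RNA precursor, and is therefore itself a product of RNA polymerase III. The comparison asks whether the mRNAs of the polymerases, above all of the one that makes this precursor, differed once the fragment was targeted.

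Library totals ran from 63541413 to 78917459 counts. Of 7 markers of luminal apocrine breast cancer cells, all were expressed, with a summed level of 3080 to 3130 CPM (counts scaled to library size) in the control libraries and 4090 to 4470 in the shtRF libraries. The summed level of 6 markers of leukocytes, fibroblasts and endothelium was 30 to 35.5 CPM in control and 20.8 to 21.6 CPM in shtRF. Nearly all of it was COL1A1, a collagen gene, at 32.2 and 20.9 CPM, while PTPRC, CD3E, COL1A2, PECAM1 and VWF each averaged under 0.2 CPM. The part of these levels in the results below was not tested.

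In these libraries 18 of the 42 genes passed the threshold of an adjusted p under 0.05 in edgeR's quasi-likelihood test, or 42.9%, and the share among all 19628 tested genes was 39.5%. Higher in shtRF were 8 of the 42 (19%, against 20.6% of all genes) and lower were 10 (23.8%, against 18.9%). In bulk RNA of this kind, fewer cells with a transcript and less of it per cell cannot be told apart. As a whole, the polymerase genes were thus called about as often as other genes. No gene passed the threshold with more than a 2-fold change, against 5.77% of all genes. The log2 fold changes ran from -0.60 to 0.69 with a median of -0.06, beside -0.0025 over all tested genes. The groups did not overlap in CPM for 23 of the 42 genes (54.8%, against 48.7% of all genes). In 10 of them shtRF lay above (24.9% of all genes did) and in 13 control lay above (23.8% of all genes did). In the fit without shtRF replicate 3 only 5 genes were lower, as POLR2J3, POLR3G, GTF3A, GTF3C2 and GTF3C5 missed the threshold there.

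**Figure D1:**
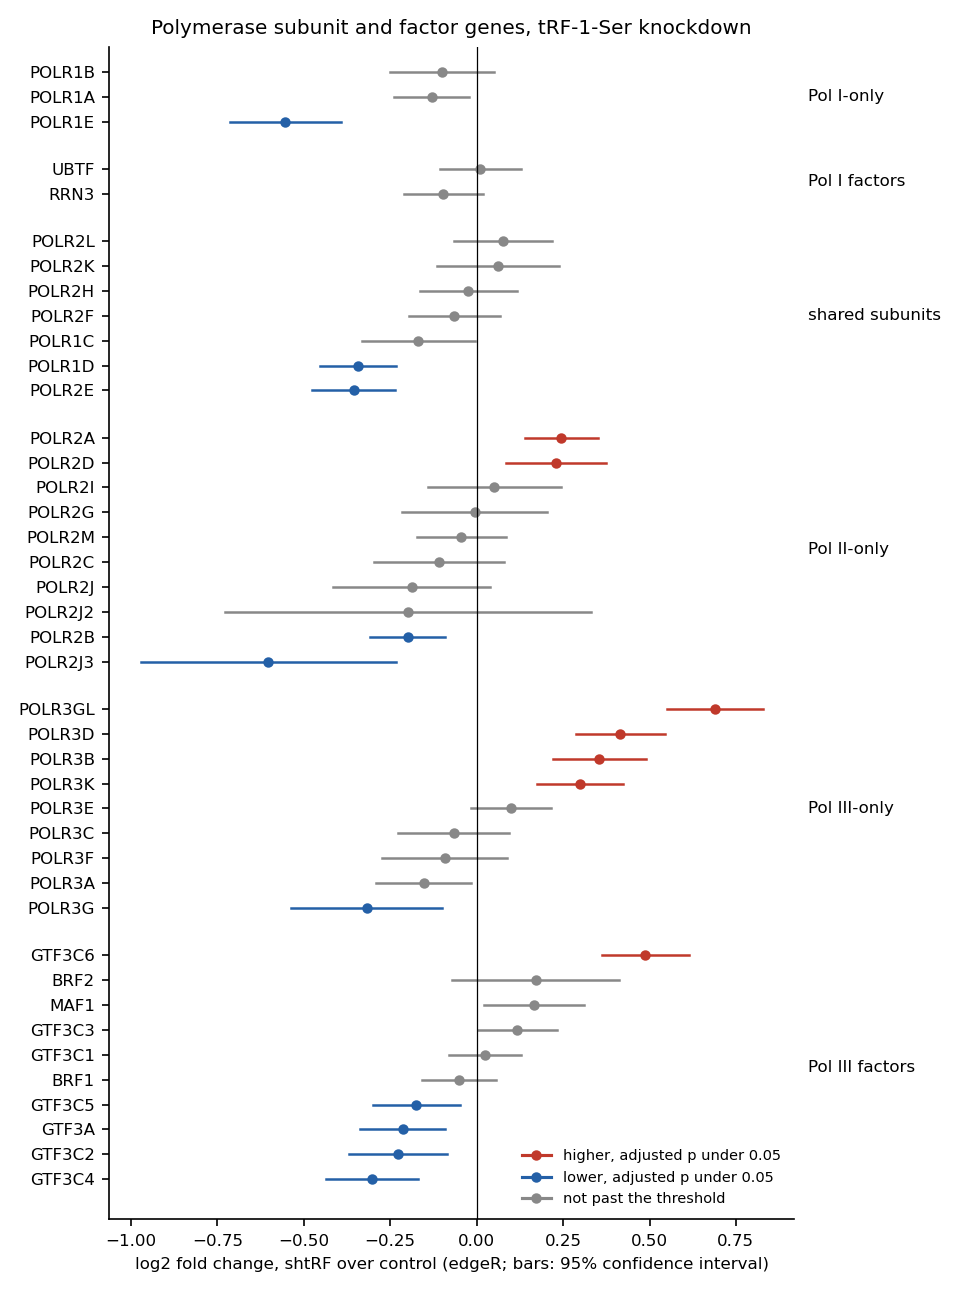
Log2 fold change of shtRF over control for the polymerase genes described here, by polymerase, with bars for the 95% confidence interval (edgeR, n = 3 libraries per group). Of the RNA polymerase III subunits drawn, 4 lie to the right of 0 in red and 1 to the left in blue, and POLR3GL has the highest value at 0.69.

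The polymerases differed in how their calls were spread, as the plot of fold changes shows. Among the 10 subunits of RNA polymerase III only, 5 rose and 1 fell, with a median log2 fold change of 0.19. Among the 10 of RNA polymerase II only, 2 rose and 2 fell (median -0.08, but -0.15 without control replicate 1 and -0.031 without control replicate 2). Of the 3 subunits of RNA polymerase I only that carry such a symbol, none rose and 1 fell (median -0.13). With TWISTNB, CD3EAP and ZNRD1, which are subunits of the same enzyme under other symbols, 2 of 6 rose and 1 fell (median 0.055). CRCP, a subunit of RNA polymerase III under another symbol, is not in the count for that enzyme and rose by 0.49 in log2. None of the 7 shared subunits rose and 2 fell (median -0.06, but -0.13 without control replicate 2 and -0.033 without shtRF replicate 1). No test between the polymerases was run, so these counts are a description to be read beside the shares of 20.6% higher and 18.9% lower among all genes.

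Promoter sequences are shown for 2 genes that rose and 2 that fell, chosen after their values were seen. POLR3GL and GTF3C6 had the largest rises, and POLR2E and POLR1D large falls among genes without near-identical copies that have a RefSeq window. Each is the 250 bases before the RefSeq start on GRCh38.p14, read 5′ to 3′ on the strand of the gene. Capitals mark matches on either strand to CACGTG (the E-box), CCGGAAG (the core bound by ETS factors) or CCAAT. They lie at chr1:145964440-145964689 (plus strand), chr6:110958456-110958705 (plus), chr19:1095376-1095625 (minus) and chr13:27620493-27620742 (plus), in this order.
POLR3GL: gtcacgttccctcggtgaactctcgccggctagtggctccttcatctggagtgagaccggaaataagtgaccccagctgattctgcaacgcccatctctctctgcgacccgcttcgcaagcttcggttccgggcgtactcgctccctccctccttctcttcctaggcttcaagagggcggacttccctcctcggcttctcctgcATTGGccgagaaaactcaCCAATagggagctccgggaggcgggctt
GTF3C6: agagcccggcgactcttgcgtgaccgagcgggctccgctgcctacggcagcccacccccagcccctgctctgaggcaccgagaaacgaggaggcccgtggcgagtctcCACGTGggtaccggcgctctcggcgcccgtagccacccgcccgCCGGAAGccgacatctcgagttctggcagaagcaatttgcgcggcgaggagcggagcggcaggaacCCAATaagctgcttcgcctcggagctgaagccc
POLR2E: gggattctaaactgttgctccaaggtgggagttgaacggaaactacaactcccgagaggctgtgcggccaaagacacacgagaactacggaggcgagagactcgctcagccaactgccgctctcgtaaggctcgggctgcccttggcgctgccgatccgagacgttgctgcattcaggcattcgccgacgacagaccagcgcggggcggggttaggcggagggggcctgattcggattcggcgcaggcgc
POLR1D: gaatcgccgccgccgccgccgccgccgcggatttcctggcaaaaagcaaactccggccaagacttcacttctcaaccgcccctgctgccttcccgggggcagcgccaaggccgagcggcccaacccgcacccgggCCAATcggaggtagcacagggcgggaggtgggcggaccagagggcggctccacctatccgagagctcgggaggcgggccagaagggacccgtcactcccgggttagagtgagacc

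POLR3GL held a pair of CCAAT matches and no E-box, GTF3C6 held all 3 motifs, POLR1D a single CCAAT and POLR2E none of them. RefSeq windows of 300 bases, 250 before and 50 after the start, were found for 31 of the 42 genes. The ETS motif was present in 16 of the 31 (51.6%), against 18.4% of the 10853 tested genes with a window and 10.7% of all 27305 windows. The E-box was present in 6 (19.4%, against 9.99% of tested genes and 7.43% of all windows), and CCAAT in 8 (25.8%, against 36.8% and 35.7%). Of the 6 genes that rose and had a window, 2 held the ETS motif, 1 the E-box and 4 CCAAT. Of the 7 that fell, 3 held the ETS motif, 2 the E-box and 1 CCAAT. The TATA box (TATAAA) was present in 2 of the 31 (6.45%, against 5.98% and 12%), and in no gene that passed the threshold. A match is only a match of letters.

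The subunit with the largest change was POLR3GL (chromosome 1, 145964702 to 145978848, GRCh38), which encodes one of the alternative forms of an RNA polymerase III subunit in the initiation subcomplex. Its level was 37.2, 35.1 and 35.3 CPM in control and reached 51.3, 60 and 62.2 CPM in shtRF. Every shtRF library lay above every control library, and the rise was 1.61-fold (log2 fold change 0.69 ± 0.07, SE; edgeR adjusted p = 2.60e-08). A share of 21.2% of its exonic sequence is also part of CH17-270A2.2, a gene on the same strand, whose log2 fold change was 0.08 (adjusted p = 0.277).

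POLR3G (chromosome 5, 90471748 to 90514553) encodes the other form, which is known from stem cells and from dividing and transformed cells. It read 9.70, 9.10 and 11.5 CPM in control and 7.45, 9.03 and 7.87 CPM in shtRF. The groups only just kept apart, since 9.03 in shtRF replicate 2 met 9.10 in control replicate 2. The log2 fold change was -0.32 ± 0.11 (SE; adjusted p = 0.0195). This call was lost without control replicate 3 (log2 fold change -0.21, adjusted p = 0.133), without shtRF replicate 1 (adjusted p = 0.0934) and without shtRF replicate 3 (0.0755). The processed pseudogene POLR3GP1, which resembles it, had 118, 149 and 114 counts in control and 169, 159 and 146 in shtRF.

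The balance of the paralogs was then taken per length. In RPKM, counts scaled to both library total and exonic length, POLR3GL was 20.3 ± 0.642 and POLR3G 2.56 ± 0.304 in control (SD, n = 3). The ratio of POLR3GL to POLR3G was 8.56, 8.62 and 6.83 in control, against 15.4, 14.8 and 17.6 in shtRF. All 3 shtRF libraries lay above all 3 controls, and the geometric mean went from 7.96 to 15.9. As log2(POLR3G/POLR3GL) this is a step from -2.99 ± 0.191 to -3.99 ± 0.132 (SD, n = 3). The two-sided exact permutation p was 0.1, the smallest that 3 libraries against 3 allow. The larger share of the shift lay in POLR3GL, whose log2 fold change was 0.69 against -0.32 for POLR3G.

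**Figure D2:**
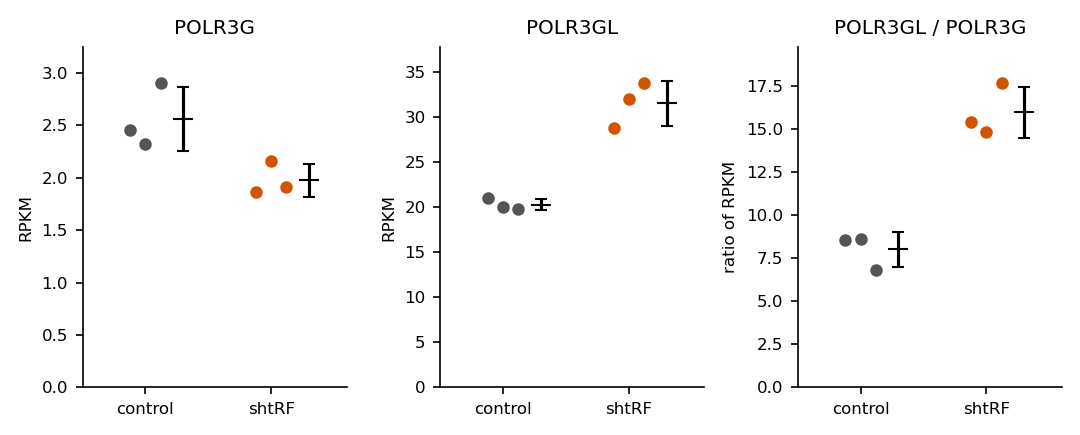
RPKM of POLR3G and of POLR3GL and the ratio of POLR3GL to POLR3G in each library, with mean and SD beside the points (n = 3 per group). The ratio lies between 6.83 and 8.62 in control and between 14.8 and 17.6 in shtRF.

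POLR3D and POLR3E form a small module of RNA polymerase III that acts in initiation and termination. POLR3D read 47.9, 48 and 52.4 CPM in control and 60.3, 67.8 and 69.7 CPM in shtRF. The groups did not overlap, and the log2 fold change was 0.42 ± 0.06 (SE; adjusted p = 1.28e-05). Its partner POLR3E went from 68.3 ± 0.0479 to 73.2 ± 4.59 CPM (SD), without overlap, and missed the threshold (log2 fold change 0.10, adjusted p = 0.169).

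The catalytic centre is formed by POLR3A, the largest subunit, and POLR3B, the second largest. POLR3B read 27.8, 24.6 and 27.3 CPM in control and 33.7, 34.7 and 33.3 CPM in shtRF, a rise without overlap (log2 fold change 0.35 ± 0.06, SE; adjusted p = 1.26e-04). POLR3A, in contrast, read 28, 29.2 and 27.8 CPM in control and 23.7, 26.2 and 26.6 CPM in shtRF. Its libraries did not overlap either, with shtRF below, but the test missed the threshold (log2 fold change -0.15, 95% confidence interval -0.29 to -0.02, adjusted p = 0.0722). It passed under upper quartile scaling (adjusted p = 0.0262), when genes needed 10 counts in each library (0.0441) and with halved counts (0.0457).

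The remaining RNA polymerase III subunits were split. POLR3K, which takes part in cleavage of the nascent RNA and in termination, rose from 41.2 ± 1.93 to 50.7 ± 2.92 CPM (adjusted p = 3.76e-04). Here 8.1% of the exonic sequence overlaps SNRNP25 on the other strand, which rose by 0.39. POLR3C and POLR3F, which sit in the initiation subcomplex beside POLR3G or POLR3GL, did not pass, with log2 fold changes of -0.07 and -0.09. In each of the 14 alternative analyses 5 of the 10 subunits rose, while the fall of POLR3G did not hold in 3 of them.

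**Figure D3:**
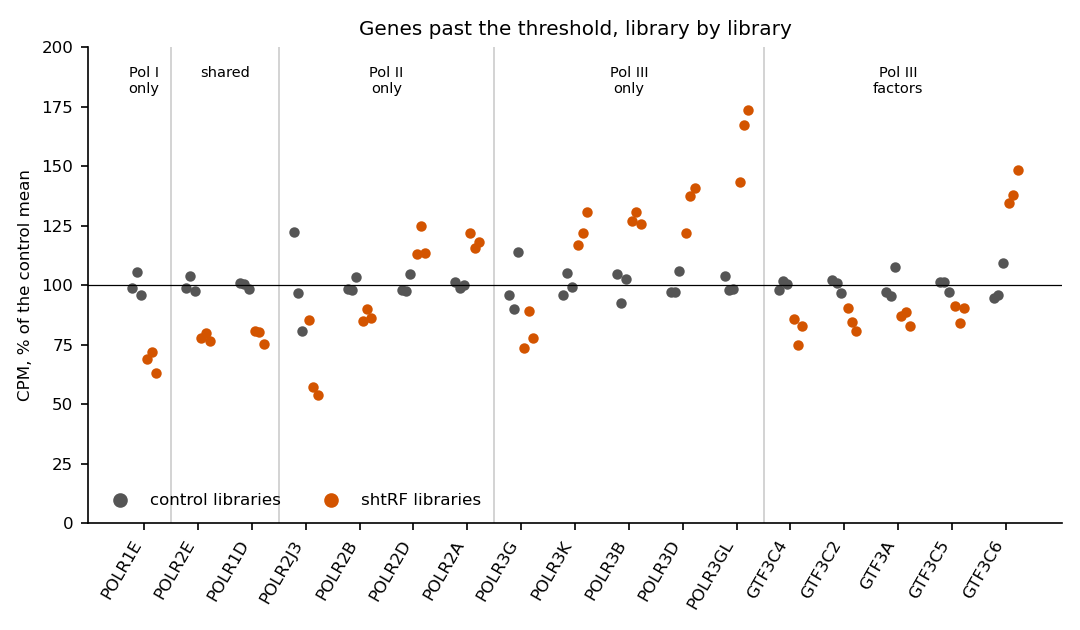
CPM in each library as a percentage of the control mean for the genes past the threshold that are described here, grouped by polymerase (gray, control; orange, shtRF; n = 3 each). Of the genes drawn, only POLR2J3 has groups that overlap.

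TFIIIC is the complex of 6 subunits, GTF3C1 to GTF3C6, that recognises the promoter inside transfer RNA genes. Its subunits did not move together: 1 rose, 3 fell and 2 missed the threshold, where 20.6% of all genes rose and 18.9% fell. Without shtRF replicate 3 a single factor of RNA polymerase III, GTF3C4, was still lower, as GTF3A, GTF3C2 and GTF3C5 had adjusted p of 0.0511, 0.075 and 0.0536. GTF3C6 (chromosome 6, 110958560 to 110967890), the smallest subunit, read 101.8, 103.2 and 117.5 CPM in control and 144.8, 148 and 159.3 CPM in shtRF. This was a rise of 1.40-fold without overlap (log2 fold change 0.49 ± 0.06, SE; adjusted p = 1.10e-06).

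GTF3C4 read 35.5, 36.9 and 36.4 CPM in control and 31.1, 27.1 and 30.1 CPM in shtRF, and fell by 0.30 on the log2 scale (adjusted p = 5.89e-04). GTF3C2 read 25.6, 25.3 and 24.1 CPM in control and 22.6, 21.2 and 20.2 CPM in shtRF (log2 fold change -0.23, adjusted p = 0.0105). In GTF3C2 25.3% of the exonic bases lie in other genes, mainly its antisense gene GTF3C2-AS1, whose log2 fold change was also -0.23. GTF3C5 fell by 0.18 (adjusted p = 0.025), but lost its call when control replicate 1 (0.0537), control replicate 2 (0.0552), shtRF replicate 2 (0.146) or shtRF replicate 3 (0.0536) was left out. The largest subunit GTF3C1 was 194.9 ± 3.80 and 198.1 ± 2.40 CPM (log2 fold change 0.02, 95% confidence interval -0.08 to 0.13). GTF3C3 was 50.5 ± 1.33 and 54.8 ± 1.35 CPM, with no overlap but an adjusted p of 0.0934 in edgeR.

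GTF3A encodes TFIIIA, the factor that RNA polymerase III needs to make the smallest ribosomal RNA. It read 62.3, 61.2 and 69.1 CPM in control and 55.9, 57 and 53.2 CPM in shtRF, without overlap, and fell by 0.21 (adjusted p = 0.00587). BRF1, the TFIIIB subunit used at transfer RNA genes, read 82.4, 85.3 and 81 CPM in control and 79.7, 78.6 and 81.6 CPM in shtRF. These groups overlapped (log2 fold change -0.05, 95% confidence interval -0.16 to 0.06, adjusted p = 0.469).

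BRF2, which stands in for BRF1 at promoters of the U6 type, was low at 4.98, 5.71 and 5.75 CPM in control and 5.94, 6.95 and 5.63 CPM in shtRF (adjusted p = 0.265). In BRF2 59% of the exonic bases lie in ADGRA2 on the other strand. MAF1, the repressor of RNA polymerase III that acts downstream of nutrient signals, read 37.6, 46.8 and 40.9 CPM in control and 47.7, 48.5 and 44.5 CPM in shtRF. The groups overlapped through control replicate 2 (log2 fold change 0.17, 95% confidence interval 0.02 to 0.31, adjusted p = 0.0628). Without that library MAF1 passed (log2 fold change 0.25, adjusted p = 0.00766). Without control replicate 1, in contrast, its log2 fold change was only 0.09 (edgeR adjusted p = 0.358).

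Of the subunits in common, POLR1C and POLR1D form the assembly platform of both RNA polymerase I and III. POLR1D (chromosome 13, 27620742 to 27744237) read 85.9, 85.8 and 84 CPM in control and 68.7, 68.5 and 64.1 CPM in shtRF. The gap between the groups was wide beside the spread within them, and the fall was 0.34 on the log2 scale (SE 0.05; adjusted p = 1.80e-05). POLR1C was 14.5 ± 0.579 and 12.9 ± 0.485 CPM and missed the threshold (log2 fold change -0.17, adjusted p = 0.0958), although the libraries did not overlap.

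POLR2E, POLR2F, POLR2H, POLR2K and POLR2L are built into all 3 enzymes. POLR2E (chromosome 19, 1086579 to 1095380) read 42.8, 44.9 and 42.1 CPM in control and 33.7, 34.5 and 33.2 CPM in shtRF, a fall of 0.36 (SE 0.06; adjusted p = 3.19e-05) without overlap. The other 4 overlapped between the groups and had log2 fold changes of -0.06 (POLR2F), -0.02 (POLR2H), 0.06 (POLR2K) and 0.08 (POLR2L). Of the exonic bases of POLR2F, 62.8% lie in the row of MIR6820, a microRNA whose row spans the same stretch, so the counts of POLR2F are uncertain.

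RNA polymerase I had the largest fall after POLR2J3. POLR1E (chromosome 9, 37485935 to 37503697), a subunit of the module of RNA polymerase I that acts like TFIIF, read 20.2, 21.6 and 19.6 CPM in control and 14.1, 14.7 and 12.9 CPM in shtRF. The fall of 0.55 on the log2 scale (SE 0.08; adjusted p = 5.16e-06) left no overlap. The catalytic subunits changed less: POLR1A was 62.1 ± 0.921 and 56.7 ± 0.232 CPM and POLR1B 20.3 ± 0.937 and 19 ± 1 CPM (SD, n = 3). POLR1A narrowly missed the threshold (adjusted p = 0.0531) and passed in 6 of 14 alternatives, while POLR1B did not (0.297).

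The factors of RNA polymerase I did not pass. UBTF, which binds the ribosomal DNA, read 290.5, 281.5 and 299.8 CPM in control and 271.8, 303.4 and 303 CPM in shtRF, with overlap (log2 fold change 0.01, 95% confidence interval -0.11 to 0.13). RRN3, which links the polymerase to its promoter factors, read 76.7, 83.7 and 83.2 CPM in control and 73.1, 78 and 76.8 CPM in shtRF, again with overlap (log2 fold change -0.10, 95% confidence interval -0.21 to 0.02). RRN3 has near-identical pseudogenes, of which RRN3P3 rose by 0.53 (adjusted p = 6.85e-04).

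The largest subunits of RNA polymerase II moved in opposite directions. POLR2A, the largest, read 146.9, 143.4 and 145.3 CPM in control and 177.1, 167.6 and 171.6 CPM in shtRF, a rise without overlap (log2 fold change 0.25 ± 0.05, SE; adjusted p = 5.30e-04). POLR2B, the second largest, read 108.9, 108.4 and 114.3 CPM in control and 93.8, 99.7 and 95.3 CPM in shtRF, a fall of 0.20 (SE 0.05; adjusted p = 0.00417). In POLR2B 7.85% of the exonic bases lie in NOA1 on the other strand, which fell by 0.53.

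POLR2D, which joins POLR2G in the stalk, read 20.1, 20 and 21.4 CPM in control and 23.2, 25.6 and 23.2 CPM in shtRF (log2 fold change 0.23, adjusted p = 0.0118). It lost this call in 3 alternatives, with an adjusted p of 0.0541 without control replicate 2 and 0.0872 without shtRF replicate 2. Its partner POLR2G was 11.6 ± 1.63 and 11.5 ± 1.04 CPM (log2 fold change -0.01). POLR2C, POLR2I and POLR2M overlapped between groups as well, with log2 fold changes of -0.11, 0.05 and -0.05, but 79.6% of the exonic bases of POLR2I lie in other genes.

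POLR2J has near-identical copies, POLR2J2 and POLR2J3, and the split of reads among them is uncertain. POLR2J read 5.64, 6.29 and 6.26 CPM in control and 5.58, 5.10 and 5.31 CPM in shtRF (adjusted p = 0.188). POLR2J2 read 1.05, 1.42 and 0.827 CPM in control and 1.01, 0.947 and 0.903 CPM in shtRF (adjusted p = 0.580). POLR2J3 read 5.01, 3.97 and 3.32 CPM in control and 3.50, 2.34 and 2.21 CPM in shtRF, so that its groups overlapped although it passed (log2 fold change -0.60 ± 0.18, SE; adjusted p = 0.00968). It lost the call in 4 alternatives, namely limma-trend (0.0779) and the fits without control replicate 1 (0.0785), shtRF replicate 2 (0.0572) or shtRF replicate 3 (0.068). In POLR2J3 13.2% of the exonic bases lie in other genes, with 8.5% in RP11-514P8.8 on the same strand. The log2 fold change of RP11-514P8.8 was -0.998 (edgeR adjusted p = 0.00191).

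In level per length, GTF3C6 led the 42 genes in control at 102.5 ± 7.75 RPKM, ahead of UBTF at 42.3 ± 1.05 RPKM and POLR2L at 24.7 ± 0.635 RPKM (SD, n = 3). The levels of POLR3K, GTF3A, POLR3GL, RRN3, POLR2B, MAF1, POLR2A and GTF3C1 followed, from 22.2 down to 17.2 RPKM, and neighbours in this order did not differ beyond their spread. POLR3A was at 3.23 ± 0.105 RPKM and POLR3B at 5.56 ± 0.333 RPKM, low beside the 17.7 ± 0.17 RPKM of POLR2A. At the bottom stood POLR3G, BRF2, POLR2J2 and POLR2J3, and the levels of the last pair, 0.541 and 0.474 RPKM, did not differ beyond their spread. The length used is that of all annotated exons of a gene, such as 1067 bases for GTF3C6 and 8917 for POLR3A. The order of levels therefore also depends on the annotation.

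Other genes of the same machineries were read from lists (the plot of the other transcription genes shows each value). Subunits that the table holds under other symbols were TWISTNB, CD3EAP and ZNRD1 of RNA polymerase I and CRCP of RNA polymerase III, and 3 of these 4 rose and none fell (all genes: 20.6% and 18.9%). CRCP, a subunit of the stalk, read 59.3, 57.7 and 55.4 CPM in control and 79.8, 83.2 and 79.5 CPM in shtRF (log2 fold change 0.49, adjusted p = 1.68e-07). Of its exonic bases 10.1% lie in AC068533.7, which rose by 0.62. CD3EAP, the partner of POLR1E, rose by 0.42 (adjusted p = 7.59e-05) while POLR1E fell, but 45.1% of its exonic bases lie in other genes, mainly ERCC1 on the other strand, which rose by 0.39.

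**Figure D4:**
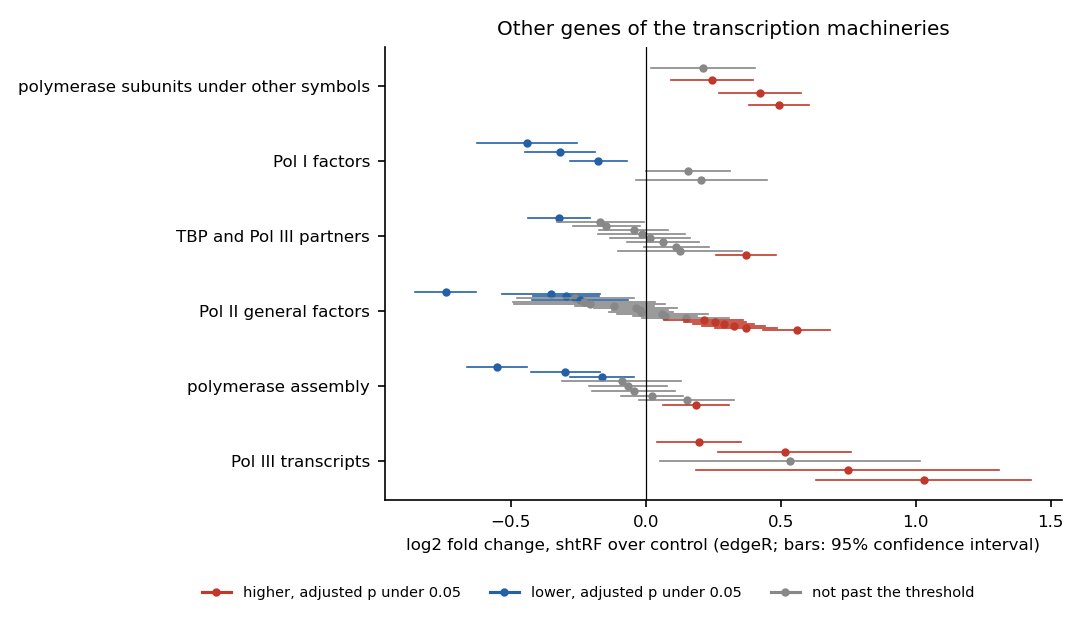
Log2 fold change of shtRF over control for each tested gene of 6 further lists, with bars for the 95% confidence interval (edgeR, n = 3 libraries per group). The list of other-symbol subunits holds 3 red points and no blue one, the list of RNA polymerase I factors 3 blue points and no red one.

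Of 5 further RNA polymerase I factors, none rose and 3 fell (all genes: 20.6% and 18.9%). TAF1B, a subunit of the promoter selectivity factor, read 11.6, 11.8 and 11.7 CPM in control against 8.33, 8.13 and 9.43 CPM in shtRF (-0.44 in log2, adjusted p = 4.16e-04), and TTF1, the termination factor, 31.9, 30.8 and 31.9 against 25.4, 26.3 and 24.3 CPM (-0.32, adjusted p = 3.02e-04). Of 10 partners of RNA polymerase III, TBP among them, 1 rose and 1 fell, fewer than the 39.5% called among all genes. SNAPC5, a subunit of the complex that binds snRNA promoters, rose by 0.37 (adjusted p = 8.43e-06), with 23.2% of its exonic bases in another gene. SSB, which encodes La, the protein that binds the ends of new RNA polymerase III transcripts, read 509.9, 512.8 and 535.9 CPM in control against 400.2, 442.8 and 403.7 CPM in shtRF (-0.32 in log2, adjusted p = 6.86e-05).

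Of 20 general factors of RNA polymerase II, 6 rose and 4 fell (all genes: 20.6% and 18.9%). The largest fall was that of GTF2H1 of TFIIH, with a log2 fold change of -0.74 (edgeR adjusted p = 3.24e-10). The largest rise was that of the elongation factor gene SUPT5H, at 0.56 (adjusted p = 1.25e-07). Among those that fell was GTF2H4, with 79% of its exonic bases in VARS2. Of 9 polymerase assembly genes 1 rose and 3 fell (all genes: 20.6% and 18.9%), led by the chaperone ATPases RUVBL1 (log2 fold change -0.55, adjusted p = 3.10e-08) and RUVBL2 (-0.30, adjusted p = 5.24e-04).

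Transcripts made by RNA polymerase III have no poly(A) tail and are poorly caught by mRNA libraries, so that their counts say little about their amount in the cell. Of 14 listed, 8 were in the table and 5 were tested. Of these, 4 were higher and none was lower (all genes: 20.6% and 18.9%). RN7SK had 174, 130 and 116 counts in control and 326, 266 and 206 in shtRF (log2 fold change 1.03 ± 0.19, SE; adjusted p = 1.70e-04). VTRNA1-2, a vault RNA, had 42, 53 and 62 counts in control and 85, 58 and 95 in shtRF (log2 fold change 0.75, adjusted p = 0.0321). The groups did not overlap in CPM for either, and whether the capture of such RNAs differed between the libraries was not tested.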

How the data were processed

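MDA-MB-453 libraries of 3 control and 3 shtRF replicates were grouped by sample title. The authors deposited raw read counts per gene for them. Per the labels, their tools were Trimmomatic 0.36, featureCounts of Subread 1.5.1 and edgeR 3.12.1 on GRCh38, and the aligner is not given in the sources used here. Of 25660 symbols with a single locus in GENCODE release 29, 98.4% overlapped that locus, and exact coordinates were not compared. A deposited RPKM table was not used, and RPKM was recomputed from counts, exonic length and library total.

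The counts were tested with edgeR 4.0.16 (R 4.3.3): filterByExpr with a minimum count of 10, TMM, and the quasi-likelihood test of a design holding only the group, on all 6 libraries, with Benjamini-Hochberg adjustment over 19628 tested genes. CPM uses the TMM factors, which lay between 0.961 and 1.03. Standard errors came from the estimate and its F statistic. The common dispersion of 0.00572 corresponds to a coefficient of variation of 7.56%, which limits the small changes that can be called. Medians over groups of genes have no test. The fits were tested on simulated data.

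Among counts of 1 to 4, 74.2% to 77.1% were even in each library, against 49.7% to 50.7% among high counts. The cause was not tested, and halved counts were tried. Genes that share exons may share reads, also across strands, and this is given beside some of the genes only. Among those without it, the exonic bases in other genes were 22.5% for POLR2L, 21.1% for POLR2M and 20.8% for POLR2J2. They were 17.4% for POLR1C, 11.2% for SSB and 10.4% for RUVBL1. Within groups the chi-square per degree of freedom between libraries was 6.19 or more, so no library looked like a copy of another. In the counts and medians, 1 gene is included that is not reported here by its values.

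The genes, the lists and the rule for those described library by library (the up to 3 largest rises and falls past the threshold in each class and a few fixed genes) were chosen with earlier results of these data known, and the promoter motifs after the values here were seen. Alternatives were upper quartile and RLE scaling, a filter at 1 count, a filter at 10 counts in every library, DESeq2 1.42.0, limma-trend (limma 3.58.1) on log2(RPKM + 1), the replicate block, halved counts and each fit without 1 library.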

Additional observations from a re-analysis of the deposited data

How the results depend on the processing

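Of 588 values of the 42 genes under 14 alternatives, 558 kept their side of the threshold, 16 lost a call and 14 gained one. The sign changed in 17 of the 558, in 8 genes that were not called (POLR2F, POLR2G, POLR2H, POLR2I, POLR2J2, POLR2L, UBTF and GTF3C1), and in no called gene. Without 1 library, 7 to 8 genes were higher and 5 to 9 lower, the 5 without shtRF replicate 3. All tested genes with an adjusted p under 0.05 numbered 6428 to 7551 there. The median log2 fold change then ran from -0.15 to -0.13 for RNA polymerase I-only subunits, from -0.13 to -0.033 for shared subunits and from -0.15 to -0.031 for RNA polymerase II-only subunits. It ran from 0.15 to 0.20 for RNA polymerase III-only subunits, from -0.028 to -0.0091 for RNA polymerase III factors, and the difference in log2(POLR3G/POLR3GL) from -1.06 to -0.89. Under upper quartile scaling the medians were -0.17 (RNA polymerase I), -0.10 (shared) and -0.05 (RNA polymerase III factors). On log2(RPKM + 1) with limma-trend they were -0.15, -0.10 and -0.059, and 0.12 for RNA polymerase III-only subunits. With at least 10 counts in every library the RNA polymerase I median was -0.14. The cause of these shifts was not tested. Deviations from the group mean were barely correlated between same-numbered libraries (0.059, 0.018 and 0.017). Differently numbered libraries were not compared, so these values cannot settle whether the replicate number marks a pair. With the replicate block 7899 genes were called, 9 of the 42 were higher and 10 lower, MAF1 being the gene gained (adjusted p = 0.0283), and permuting pairs gave p = 0.25 for the ratio in an exact test, the smallest that 3 pairs allow.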
